A study of Mus musculus with 12 samples.

Results

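The genes described here encode 10 receptors and ligands through which T cells are held back or helped at the contact with an antigen-presenting cell: *Pdcd1* (PD-1), *Lag3*, *Ctla4*, *Tigit*, *Havcr2* (TIM-3), *Icos*, *Cd28*, *Btla*, *Cd200* and *Cd274* (PD-L1). They were listed by name, as receptors and ligands of known families, with earlier results of these data in view. All 10 were found among the 56691 genes of the count table and all 10 passed the filter of 30 reads summed over the 12 samples, as did 15138 genes in all.

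The mRNA came from CD4+ T cells sorted from the spleens of 12 Tg4 *Nr4a3*-Tocky *Il10*-GFP mice, 3 per group, with 1 library per mouse. Tg4 T cells carry a transgenic receptor for a myelin basic protein peptide, *Nr4a3*-Tocky places a fluorescent Timer protein under *Nr4a3* control so that cells with recent receptor signalling turn blue and then red, and *Il10*-GFP reports interleukin 10. Every mouse, controls included, received 4 mg/kg of [4Y]-MBP peptide subcutaneously, antibodies intraperitoneally 24 h later and, after another 30 min, 0.4 mg/kg of the peptide, and was harvested 12 h after that. Only Blue+Red+ cells, called responders in the study, were sorted. The groups were isotype (a pool of rat IgG1 and rat IgG2a), anti-PD-L1 (clone MIH5, 0.5 mg), anti-Lag3 (clone C9B7W) and co-blockade (CB), in which both blocking antibodies were pooled. The mice were of both sexes and typically between 6 and 8 weeks old. Samples of different groups were stained with different CD4 fluorochromes so that they could be sorted together, so stain and group cannot be told apart.

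CD28 and ICOS are costimulatory receptors, and CTLA-4 competes with CD28 for the same ligands, CD80 and CD86, with higher affinity. PD-1, BTLA and TIGIT carry inhibitory tyrosine motifs in their tails, LAG-3 binds MHC class II, TIM-3 binds galectin-9 among others, CD200 signals to CD200R on myeloid cells, and PD-L1 is the ligand of PD-1. T cells put several of these on their surface after antigen receptor signalling, and PD-L1 and LAG-3 are the proteins that the antibodies of this study bind. Because the antibodies act on protein, the *Cd274* and *Lag3* mRNA levels are no check of the treatment.

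Depth was similar across libraries, with 16449370 to 22151025 reads on genes (median 19176439). Spike-in transcripts took 0.719 to 1.29% of counts, and 1 gene, ENSMUSG00000119584, took 14.3 to 21.9% of the reads on genes. A count of 0 allows up to 3 reads, which is 0.137 to 0.19 CPM (counts scaled to the size of the library). These limits cover counting error only, since no molecular identifiers are described for these libraries. All 7 CD4 T cell markers had reads (summed 2800 to 3240 CPM). B cell markers summed to 326 to 431 CPM and myeloid markers to 5.35 to 15.3 CPM, with *Cd14* and *Xcr1* at 0 in every library. CPM values are scaled by trimmed mean of M values (TMM), values are given as mean ± SD of 3 mice, and fold changes are on the log2 scale from 1 edgeR fit of all 12 samples. In bulk libraries, fewer cells that express a gene and less mRNA per cell cannot be told apart.

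*Cd28*, *Ctla4* and *Icos* lie side by side on mouse chromosome 1 (GRCm38), all on the plus strand. *Cd28* (ENSMUSG00000026012) spans chr1:60716800-60773359, *Ctla4* (ENSMUSG00000026011) chr1:60887000-60915832 and *Icos* (ENSMUSG00000026009) chr1:60977927-61000320. Their tails share a tyrosine, 2 variable residues and a methionine, the site through which CD28 and ICOS recruit phosphatidylinositol 3-kinase. The coding stretches around that site are shown because these neighbours share the site while their mRNA was compared gene by gene between the groups. Each is read 5′ to 3′ from the GENCODE M21 transcript with the longest coding sequence, and the capitals mark the pattern TATNNNNNNATG or TACNNNNNNATG, searched in frame on the coding strand only.

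*Icos*: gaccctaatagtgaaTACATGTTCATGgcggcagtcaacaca
*Ctla4*: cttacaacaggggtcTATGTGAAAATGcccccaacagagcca
*Cd28*: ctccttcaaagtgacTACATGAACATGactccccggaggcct

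The pattern starts at codon 181 of 223 in *Icos*, 201 of 223 in *Ctla4* and 189 of 218 in *Cd28*. Within the last 60 codons, 777 of 21456 coding genes (3.62%) held it, so the pattern is uncommon but far from particular to this family. *Icos* and *Cd28* share the tyrosine codon and the codon after it, while *Ctla4* has other codons at both places. A match is a description of the sequence and was not tested for function.

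*Icos*, which encodes the inducible costimulator that helps T cells engage B cells, was the 1 member called between CB and isotype. Its level was 320, 402 and 394 CPM in the isotype mice, 407, 417 and 419 CPM with anti-PD-L1, 484, 466 and 441 CPM with anti-Lag3, and 606, 663 and 522 CPM with CB. The group means were 372 ± 45.3, 415 ± 6.35, 464 ± 21.5 and 597 ± 70.8 CPM (SD, n = 3), and no pair of the 4 groups overlapped. All 3 CB mice lay above all 9 others. The lead of CB over isotype was 1.61-fold (95% interval 1.39 to 1.85), a log2 fold change of 0.68 (SE 0.10) with an adjusted p of 0.000115 by edgeR's Benjamini-Hochberg-adjusted quasi-likelihood test. Of all genes tested, 4.29% were called between CB and isotype, and 1 of 10 members was. Every CB mouse was above every isotype mouse for 10.4% of all genes. The like share was 6.94% for CB above anti-PD-L1, 7.68% for CB above anti-Lag3, 5.34% for anti-PD-L1 and 5.25% for anti-Lag3 above isotype, and 4.69% for anti-PD-L1 below anti-Lag3.

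**Figure D1:**
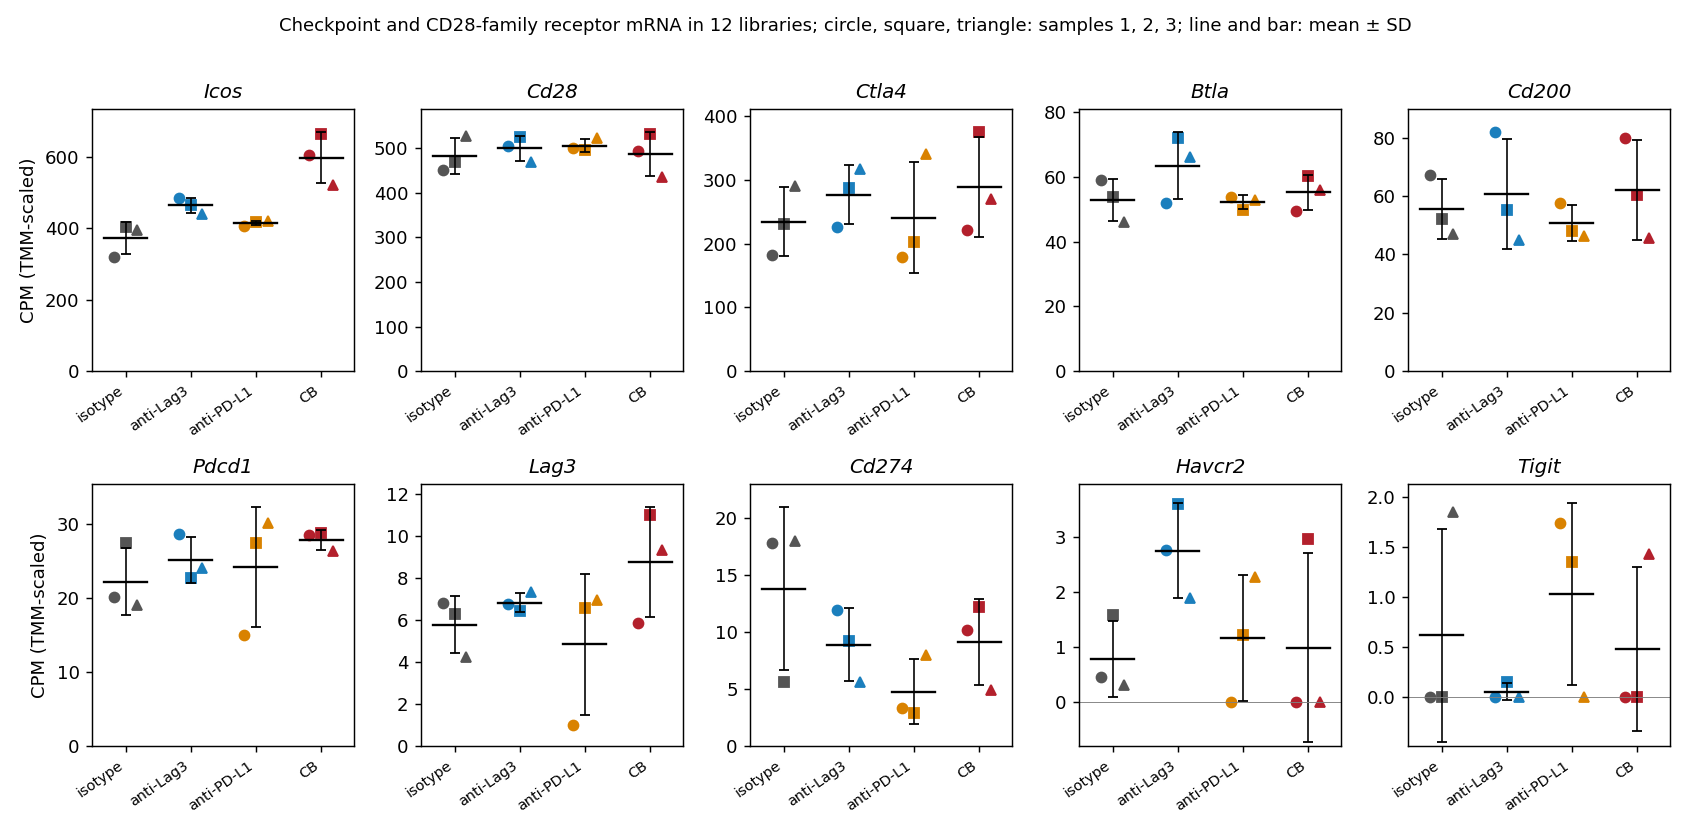
Level of each gene in TMM-scaled CPM (vertical axes, linear, a different range per panel) for the 3 mice of each group, with circle, square and triangle for samples 1, 2 and 3, and the line and bar for the mean ± SD. The *Icos* levels of the 4 groups are separate and highest with CB (606, 663 and 522 CPM), the *Cd28* levels overlap throughout, and *Tigit* and *Havcr2* are at 0 in 7 and 3 libraries.

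Each antibody alone was followed by *Icos* levels above isotype that did not pass the test. The log2 fold change was 0.16 for anti-PD-L1 (95% interval -0.05 to 0.36) and 0.32 for anti-Lag3 (0.11 to 0.52), and the adjusted p was 0.617 and 0.805 by edgeR's Benjamini-Hochberg-adjusted quasi-likelihood test. At an unadjusted p under 0.05 *Icos* passed with anti-Lag3 and not with anti-PD-L1. Here 0.033% and 0% of all genes were called, and no member was, by edgeR or DESeq2. At an unadjusted p under 0.05, 1187 and 788 of the 15138 genes and 1 of 10 members in each comparison passed in edgeR, and DESeq2 called 56 and 9 genes.

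CB exceeded each single antibody in every mouse for *Icos*. Against anti-PD-L1 the log2 fold change was 0.53 (95% interval 0.32 to 0.73, adjusted p = 0.0204, edgeR's Benjamini-Hochberg-adjusted quasi-likelihood test), where 0.37% of all genes and 1 of 10 members were called. That call was lost without anti-PD-L1 sample 2 (0.53, adjusted p = 0.0892), without CB sample 1 (0.51, 0.0641) or without CB sample 2 (0.44, 0.0686) in the same edgeR test. Against anti-Lag3 it was 0.36 (0.16 to 0.57) and was not called (adjusted p = 0.092, edgeR's Benjamini-Hochberg-adjusted quasi-likelihood test), where 0.694% of all genes and 0 of 10 members were called, 1 member at an unadjusted p under 0.05 and 1 by DESeq2 (*Icos*, adjusted p = 0.012). Between anti-PD-L1 and anti-Lag3 the difference in *Icos* was -0.16 (-0.37 to 0.04, adjusted p = 0.803, same edgeR test), with 0% of all genes and no member called by edgeR. No member passed there at an unadjusted p under 0.05 or by DESeq2, against 710 and 10 of all genes.

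Whether the effects of the antibodies add up on the log2 scale was tested as CB minus anti-PD-L1 minus anti-Lag3 plus isotype. For *Icos* that difference was 0.21 (SE 0.14, 95% interval -0.08 to 0.50), with an adjusted p of 0.948 by edgeR's Benjamini-Hochberg-adjusted quasi-likelihood test. The interval covers 0 and also a surplus of up to 0.50 beyond the sum of the single effects. In this test 0% of all genes and 0 of 10 members were called by edgeR, 898 genes and 1 member (*Cd274*) at an unadjusted p under 0.05, and 5 genes and no member by DESeq2.

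Sums of some markers of other cells also differed between isotype and CB. The summed erythroid markers ran from 241 to 444 CPM in isotype and from 149 to 198 CPM in CB. For NK cell markers this was 20.2 to 35.6 against 9.47 to 18.9 CPM, and for CD8 T cell markers 40.9 to 45.3 against 25 to 33.2 CPM. With anti-PD-L1 the 3 sums were 170 to 215, 17.2 to 22.3 and 24.6 to 30.5 CPM. After anti-Lag3, where mean *Icos* was higher than with anti-PD-L1, they were 213 to 286, 17.2 to 27.2 and 29.2 to 46.4 CPM. The NK cell sum followed *Gzma*, at 26.3 ± 7.62 CPM in isotype and 9.37 ± 2.51 CPM in CB, while *Klrb1c* (0.307 ± 0.266 and 1.43 ± 0.408 CPM) and *Klrk1* (1.29 ± 0.596 and 3.57 ± 2.90 CPM) had higher means in CB. The median log2 fold change of the 4 NK cell markers was 0.48. The CD8 T cell sum was nearly all *Cd8b1*, at 42 ± 2.86 CPM in isotype and 29.7 ± 4.2 CPM in CB. *Cd8a* was near the detection limit, at 0.772 ± 0.722 and 0.402 ± 0.696 CPM. CD4 T cell markers summed to 3080 to 3230 CPM in isotype and 2800 to 2810 CPM in CB. Their part in the *Icos* difference was not tested.

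*Cd28*, which encodes the main costimulatory receptor of naive T cells, was between 435 and 532 CPM in all 12 libraries. It read 452, 469 and 528 CPM with isotype, 500, 496 and 522 with anti-PD-L1, 504, 526 and 470 after anti-Lag3, and 493, 532 and 435 with CB. All 4 groups overlapped. Between CB and isotype its log2 fold change was 0.01 (SE 0.09, 95% interval -0.18 to 0.20), or 1.01-fold (0.883 to 1.15).

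*Ctla4*, which encodes the competitor of CD28, varied more among mice of a group than between groups. Its level was 182, 231 and 290 CPM with isotype, 179, 202 and 340 with anti-PD-L1, 226, 287 and 316 after anti-Lag3, and 221, 374 and 269 with CB. The mouse numbered 1 was the lowest of its group in all 4 groups. CB and isotype differed by 0.30 (SE 0.19, 95% interval -0.10 to 0.70, adjusted p = 0.482, edgeR's Benjamini-Hochberg-adjusted quasi-likelihood test). Leaving out 1 mouse at a time moved this difference from 0.06 to 0.48. With the sample number as a term in the edgeR fit it was 0.31 (SE 0.12, adjusted p = 0.154, quasi-likelihood test), also not called.

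Reads of *Icos* set against those of *Cd28* in the same library do not depend on the scaling between libraries. The ratio was 0.708, 0.858 and 0.745 with isotype, 0.816, 0.841 and 0.803 with anti-PD-L1, 0.96, 0.887 and 0.938 after anti-Lag3, and 1.23, 1.25 and 1.2 with CB. CB lay above all other groups, and it was the group in which *Icos* had more reads than *Cd28*. On the log2 scale the mean was -0.38 ± 0.14 with isotype and 0.29 ± 0.03 with CB (SD, n = 3), a difference of 0.67 with a two-sided exact permutation p of 0.1, the smallest that 3 against 3 can give. The log2 ratio of *Ctla4* to *Cd28* was -1.07 ± 0.22 with isotype and -0.79 ± 0.34 with CB, a difference of 0.28 (n = 3, exact permutation p = 0.3), and these groups overlapped.

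**Figure D2:**
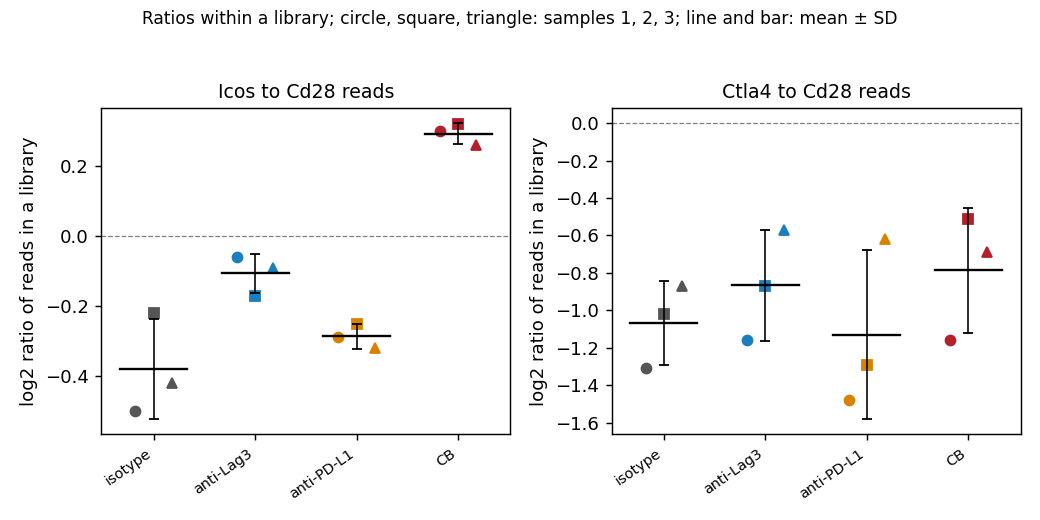
Log2 ratio of reads within a library (vertical axes) for *Icos* to *Cd28* (left) and *Ctla4* to *Cd28* (right), 3 mice per group, with circle, square and triangle for samples 1, 2 and 3 and the line and bar for the mean ± SD. The 3 CB points of *Icos* to *Cd28* lie above 0 (mean 0.29) and all 9 others below it, while the *Ctla4* to *Cd28* points of the 4 groups overlap.

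Across this stretch of chromosome 1 the fitted change between CB and isotype differed from gene to gene. Counted from the start of *Cd28*, *Ctla4* lies at 170.2 to 199 kb and *Icos* at 261.1 to 283.5 kb. Next to *Cd28* on the other side, *Raph1*, which encodes an actin regulator, ends at -149.7 kb and had a log2 fold change of 0.00 (SE 0.23). *Pard3b*, the next gene beyond *Icos*, starts at 922 kb and had 46 reads in all 12 libraries, too few for a value. *Gm37039* overlaps *Icos* on the same strand (1486 reads, against 107864 on *Icos*) and *Rpl18-ps1* overlaps *Ctla4* (2185 reads, against 61009), so a small part of the reads of either pair could be assigned to its partner.

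**Figure D3:**
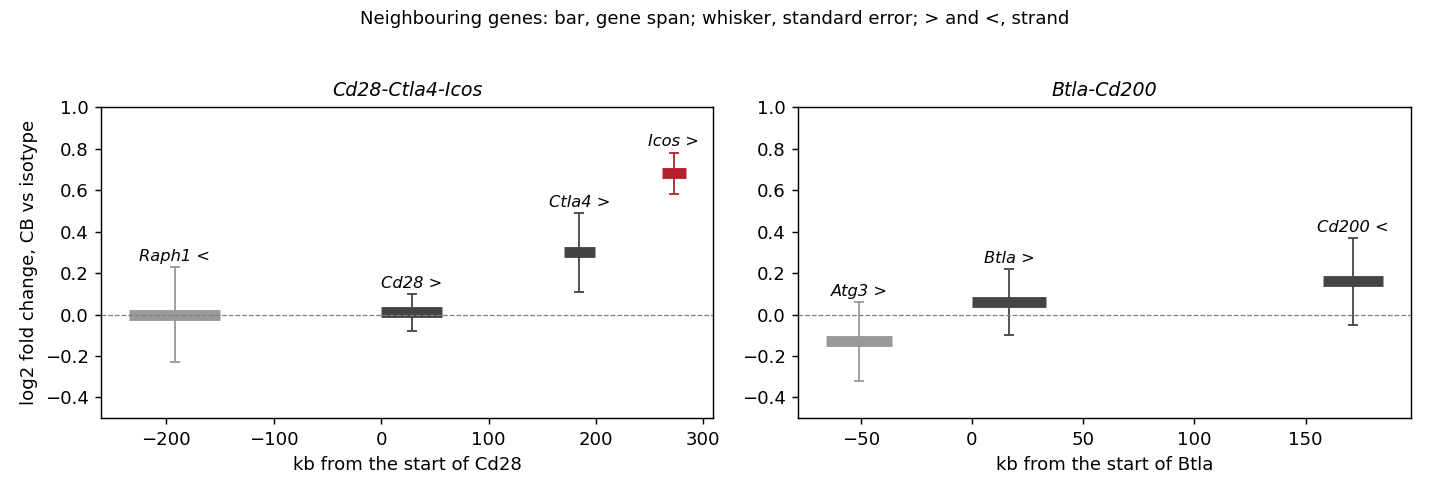
Log2 fold change between CB and isotype (vertical axis) of neighbouring genes with over 1000 reads, against the distance in kb from the start of *Cd28* (left) or *Btla* (right), with thick bars for the gene spans, whiskers for the standard error, > and < for the strand and red for an adjusted p under 0.05. *Icos* stands at 0.68, *Ctla4* at 0.30, *Cd28* at 0.01 and *Raph1* at 0.00, and on the right *Btla* and *Cd200* stand at 0.06 and 0.16.

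Among 7348 genes with a mean of at least 10 CPM, those nearest to *Icos* in pattern over the 12 samples were *Fcf1*, *Uchl3* and *Hells*. Likeness was the root mean square difference of the centred log2 CPM values, which was 0.10, 0.11 and 0.11, against 0.27 for the spread of *Icos* about its own mean. *Fcf1*, which encodes a factor of small ribosomal subunit processing, went from 226 ± 22.7 CPM with isotype to 356 ± 15.1 CPM with CB. *Uchl3*, a ubiquitin hydrolase, went from 77.1 ± 8.54 to 109 ± 8.51 CPM, and *Hells*, a chromatin remodeller of dividing cells, from 189 ± 25.7 to 268 ± 22.4 CPM. All 3 rose between isotype and CB, by 0.66, 0.50 and 0.50 on the log2 scale, and the adjusted p was 0.00014, 0.0219 and 0.00918 in edgeR's Benjamini-Hochberg-adjusted quasi-likelihood test. They were picked for this likeness over the same samples, so their direction is no separate support.

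*Pdcd1* (ENSMUSG00000026285, chr1:94038305-94052553, minus strand), which encodes the PD-1 receptor itself, was at 20.1, 27.4 and 19.1 CPM with isotype and 28.5, 28.8 and 26.3 CPM with CB. With anti-PD-L1 it was at 15.0, 27.4 and 30.1 CPM and with anti-Lag3 at 28.6, 22.7 and 24.1 CPM. Isotype sample 2 lay above CB sample 3, so the groups overlapped. The difference between CB and isotype was 0.33 (SE 0.26, 95% interval -0.20 to 0.85) and was not called (adjusted p = 0.604, edgeR's Benjamini-Hochberg-adjusted quasi-likelihood test). Alone, anti-PD-L1 gave 0.12 and anti-Lag3 0.18 (SE 0.26 each).

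*Lag3* (ENSMUSG00000030124, chr6:124904361-124911705, minus strand) encodes the target of the other antibody. It was at 6.79, 6.27 and 4.24 CPM with isotype, 0.987, 6.56 and 6.96 with anti-PD-L1, 6.73, 6.44 and 7.30 after anti-Lag3, and 5.87, 11 and 9.32 with CB. CB samples 2 and 3 were the highest of the 12, CB sample 1 was within the isotype range, and anti-PD-L1 sample 1 stood alone with 17 reads where the others had at least 80. CB and isotype differed by 0.60 (SE 0.55, 95% interval -0.53 to 1.73, adjusted p = 0.689, edgeR's Benjamini-Hochberg-adjusted quasi-likelihood test). With anti-PD-L1 alone the value was -0.25, and 0.23 when anti-PD-L1 sample 1 was left out. With anti-Lag3 alone it was 0.24 (SE 0.55), and no difference of *Lag3* from isotype passed the test in any group.

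*Cd274* (ENSMUSG00000016496, chr19:29367455-29388095, plus strand), which encodes the ligand bound by anti-PD-L1, scattered widely among the mice of a group. It was at 17.8, 5.57 and 18.0 CPM with isotype, 3.37, 2.92 and 8.01 with anti-PD-L1, 11.9, 9.16 and 5.57 after anti-Lag3, and 10.2, 12.2 and 4.94 with CB. The means were 13.8 ± 7.11, 4.76 ± 2.82, 8.89 ± 3.20 and 9.12 ± 3.76 CPM (SD, n = 3). The anti-PD-L1 and isotype groups overlapped, since isotype sample 2 was lower than anti-PD-L1 sample 3. The log2 fold change of anti-PD-L1 against isotype was -1.53 (SE 0.50, 95% interval -2.56 to -0.50). It had an unadjusted p of 0.00514 and an adjusted p of 0.406 in edgeR's Benjamini-Hochberg-adjusted quasi-likelihood test, and was not called. CB differed from isotype by -0.60 (SE 0.49) and from anti-PD-L1 by 0.93 (SE 0.50), also not called. Myeloid markers, whose cells also express PD-L1, summed to 10.6 to 15.3 CPM with anti-PD-L1, where *Cd274* had its lowest mean, and to 5.56 to 9.61 CPM with isotype. The higher sum was that of *Lyz2* (7.88 ± 1.56 against 1.56 ± 1.26 CPM), while *Itgam* (3.55 ± 2.36 against 3.74 ± 1.06), *Csf1r* (1.40 ± 1.90 against 1.44 ± 1.57) and *Itgax* (0.581 against 1.08) had means no higher than isotype. Their part in the *Cd274* values was not tested.

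**Figure D4:**
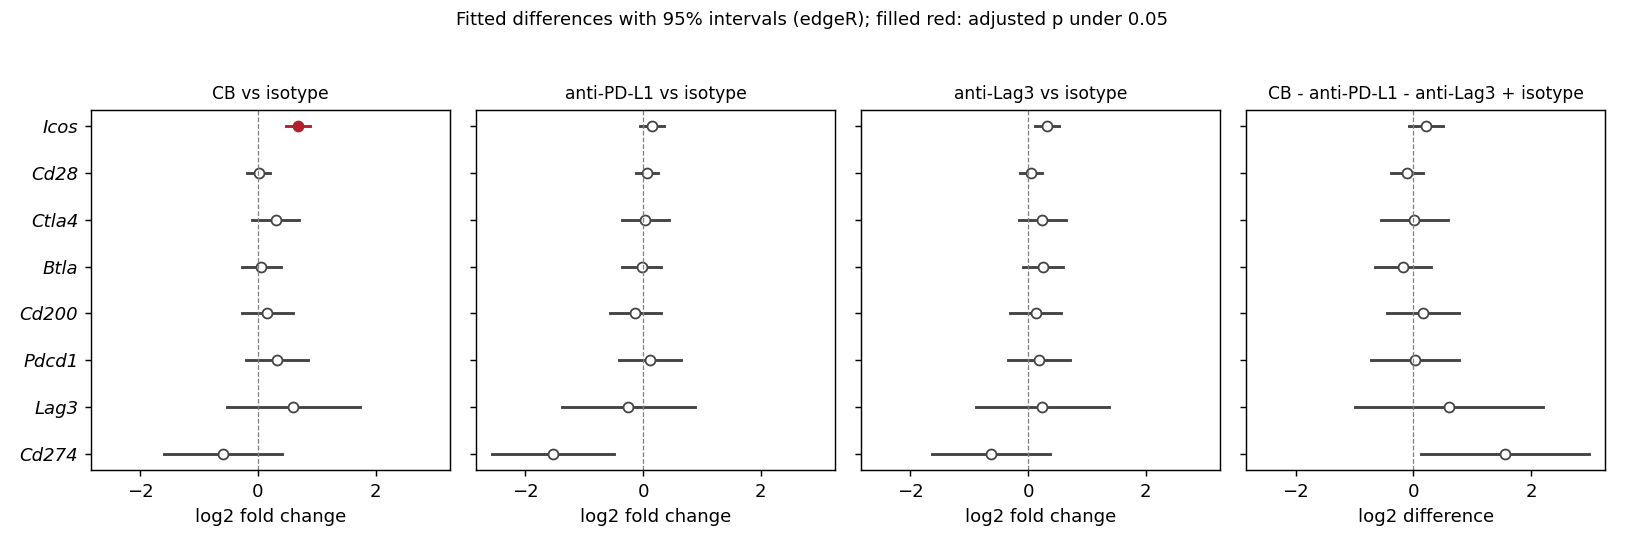
Fitted log2 differences (points) with 95% intervals (bars) for the 8 members with reads in every library, in CB, anti-PD-L1 and anti-Lag3 against isotype and in the test of whether the antibodies' effects add up. The horizontal scale is shared. *Icos* with CB (0.68) is the one filled red point, with an adjusted p under 0.05, and the *Lag3* and *Cd274* intervals are the widest.

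*Btla* (ENSMUSG00000052013, chr16:45224315-45257670, plus strand) and *Cd200* (ENSMUSG00000022661, chr16:45382135-45409053, minus strand) are also near each other, with *Cd200* 157.8 to 184.7 kb from the start of *Btla*. *Btla*, an inhibitory receptor for the TNF receptor family member HVEM, was at 58.9, 53.8 and 46.0 CPM with isotype and 49.3, 60.2 and 56.0 CPM with CB. With anti-PD-L1 it was at 53.9, 49.7 and 52.7 CPM and with anti-Lag3 at 51.9, 72.0 and 66.1 CPM. Anti-Lag3 samples 2 and 3 were the highest of the 12, but the anti-Lag3 and isotype groups overlapped. CB and isotype differed by 0.06 (SE 0.16, 95% interval -0.27 to 0.40).

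*Cd200*, whose protein signals to its receptor on other cells, was at 67.1, 52.3 and 47.1 CPM with isotype, 57.7, 48.0 and 46.3 with anti-PD-L1, 81.8, 55.3 and 45.1 after anti-Lag3, and 79.9, 60.4 and 45.7 with CB. In each group sample 1 was the highest and sample 3 the lowest. The difference between CB and isotype was 0.16 (SE 0.21, 95% interval -0.27 to 0.59), and the direction of both *Btla* and *Cd200* turned when single samples were left out. The next gene before *Btla*, *Atg3*, an autophagy enzyme, had a log2 fold change of -0.13 (SE 0.19).

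*Havcr2* (ENSMUSG00000020399, chr11:46454935-46481255, plus strand) and *Tigit* (ENSMUSG00000071552, chr16:43648867-43664146, minus strand), inhibitory receptors best known from exhausted and regulatory T cells, were near the detection limit. *Havcr2* had 9, 25 and 6 reads with isotype, 0, 22 and 50 with anti-PD-L1, 55, 73 and 36 after anti-Lag3, and 0, 62 and 0 with CB. The 3 anti-Lag3 mice were above the 3 isotype mice (2.76 ± 0.861 against 0.785 ± 0.695 CPM), as for 5.25% of all genes, and *Icos* was the other member of which this held. The *Havcr2* difference was not called (adjusted p = 0.986, edgeR's Benjamini-Hochberg-adjusted quasi-likelihood test). *Tigit* had 0, 0 and 35 reads with isotype, 30, 24 and 0 with anti-PD-L1, 0, 3 and 0 after anti-Lag3, and 0, 0 and 31 with CB. With 7 of 12 libraries at 0 no fold change is given. In every group some mice had reads and others had 0, so a change could not be judged.

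Seen together, 8 of the 10 members had a fitted change above 0 between CB and isotype, with a median of 0.23 where the median of all genes was 0. The median was 0.23 between CB and anti-PD-L1, 0.05 between CB and anti-Lag3, 0.21 for anti-Lag3 and 0.05 for anti-PD-L1 against isotype. Between anti-PD-L1 and anti-Lag3 it was -0.23, with 2 of 10 members above 0. The 8 above 0 with CB include *Cd28*, *Btla* and *Cd200*, whose sign turned when single samples were left out, and *Havcr2*, with an SE of 1.69. These comparisons share samples, so their likeness is no separate result.

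Partners of the receptors were described from lists made for this purpose. Of 13 ligands and counter-receptors 11 had enough reads, 1 fell between isotype and CB, none rose, and the median was -0.51. These counts, like those of the lists that follow, stand beside 4.29% of all genes called in this comparison, and with 1 gene called such a list is near that background. The median rests partly on sparse genes and is no measure of a fall of the ligands. Of the 11, 5 had at least 1000 reads in all, while *Cd80*, *Icosl*, *Nectin2*, *Tnfrsf14* and *Cd200r1* had 0 to 60 reads per library. *Lgals9*, which encodes the TIM-3 ligand galectin-9, was 156 ± 2.36 CPM with isotype, 155 ± 18.4 with anti-PD-L1, 155 ± 4.24 with anti-Lag3 and 106 ± 4.13 with CB. In the 3 CB mice it ran from 102 to 110 CPM. It fell by 0.56 on the log2 scale against isotype, with an adjusted p of 0.00381 in edgeR's Benjamini-Hochberg-adjusted quasi-likelihood test. Against anti-PD-L1 and anti-Lag3 the change was -0.55 in both, at an adjusted p of 0.0299 and 0.0169 by that edgeR test, and the test of additivity gave -0.54 (SE 0.16, adjusted p = 0.804, edgeR's quasi-likelihood test).

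The ligand of ICOS itself had few reads in these cells. *Icosl* had 0 reads in all 3 CB libraries, 0, 14 and 7 with isotype, 0, 0 and 7 with anti-PD-L1, and 60, 13 and 18 after anti-Lag3. *Tnfrsf14*, which encodes the BTLA ligand HVEM, had 25, 47 and 0 reads with isotype and 31, 2 and 0 with CB. *Pdcd1lg2*, which encodes the other PD-1 ligand, PD-L2, was singled out after its values were seen. It was at 5.56 ± 1.86 CPM with isotype and 12.4 ± 3.11 CPM with CB (n = 3), without overlap, as for 10.4% of all genes. Its difference of 1.15 (SE 0.41) was not called (adjusted p = 0.131, edgeR's Benjamini-Hochberg-adjusted quasi-likelihood test).

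Other inhibitory receptors fell in 1 of 11 cases and rose in none (median -0.14), where 4.29% of all genes were called. The one that fell, *Sit1*, an adaptor that recruits the phosphatase SHP-2, went from 31.4 ± 2.06 CPM with isotype to 16.1 ± 4.39 CPM with CB, which is -0.97 on the log2 scale (SE 0.24, adjusted p = 0.0164, edgeR's Benjamini-Hochberg-adjusted quasi-likelihood test). *Cd300a* had reads in 1 CB library (7 reads) and 2 anti-PD-L1 libraries (47 and 14), and *Cd101* was at 1.17 ± 1.08 CPM with isotype and 3.25 ± 2.92 CPM with CB.

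Of 14 enzymes and adaptors that bind the receptor tails, 1 fell and none rose (median -0.14), where 4.29% of all genes were called. *Grap2*, an adaptor of the T cell receptor and CD28 pathways, went from 133 ± 8.59 to 92 ± 15.1 CPM, which is -0.53 on the log2 scale (SE 0.13, adjusted p = 0.0124, edgeR's Benjamini-Hochberg-adjusted quasi-likelihood test). *Pik3r1*, the regulatory subunit that docks on the CD28 and ICOS tail sites shown above, had a value of -0.32 (SE 0.18). *Ptpn11*, which encodes SHP-2, had 0.32 (SE 0.18), and neither was called.

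Of 18 transcription factors known to act on checkpoint genes, 2 rose and 1 fell (median 0.11), where 4.29% of all genes were called. *Irf4*, a factor whose level follows antigen receptor signal strength, was at 66.5 ± 11.7 CPM with isotype and 114 ± 32.3 CPM with CB, a rise of 0.78 on the log2 scale (SE 0.19, adjusted p = 0.0122, edgeR's Benjamini-Hochberg-adjusted quasi-likelihood test). *Maf*, a factor of T follicular helper cells, rose by 0.66 (170 ± 25.4 to 268 ± 3.89 CPM, edgeR adjusted p = 0.00363). *Tcf7*, a factor of naive and memory T cells, fell by 0.29 (713 ± 6.70 to 583 ± 21.9 CPM, edgeR adjusted p = 0.0405). *Eomes*, with 7, 4 and 11 reads in isotype and 22, 12 and 17 in CB, was too sparse for a fold. The list was built from knowledge of the field and with earlier results of these data in view, so its counts are not independent evidence.

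None of 13 genes that control receptor mRNA decay or surface protein was called by edgeR between CB and isotype, and 1 passed at an unadjusted p under 0.05 (median -0.04). That gene, *Trat1*, an adaptor that keeps the T cell receptor and CTLA-4 at the cell surface, was at 7.71 ± 1.97 CPM with isotype and 2.11 ± 1.06 CPM with CB. Its difference was -1.87 (SE 0.73, adjusted p = 0.181, edgeR's Benjamini-Hochberg-adjusted quasi-likelihood test). *Rnf128* had 25 reads in 1 isotype library and 7 in 1 CB library. No gene of these lists was called with either antibody alone, and of all of them *Lgals9* was the one called between CB and a single antibody. Setting genes without any read in the isotype or the CB group to 3 reads over that group changed none of the medians. Other sparse genes were left as fitted.

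**Figure D5:**
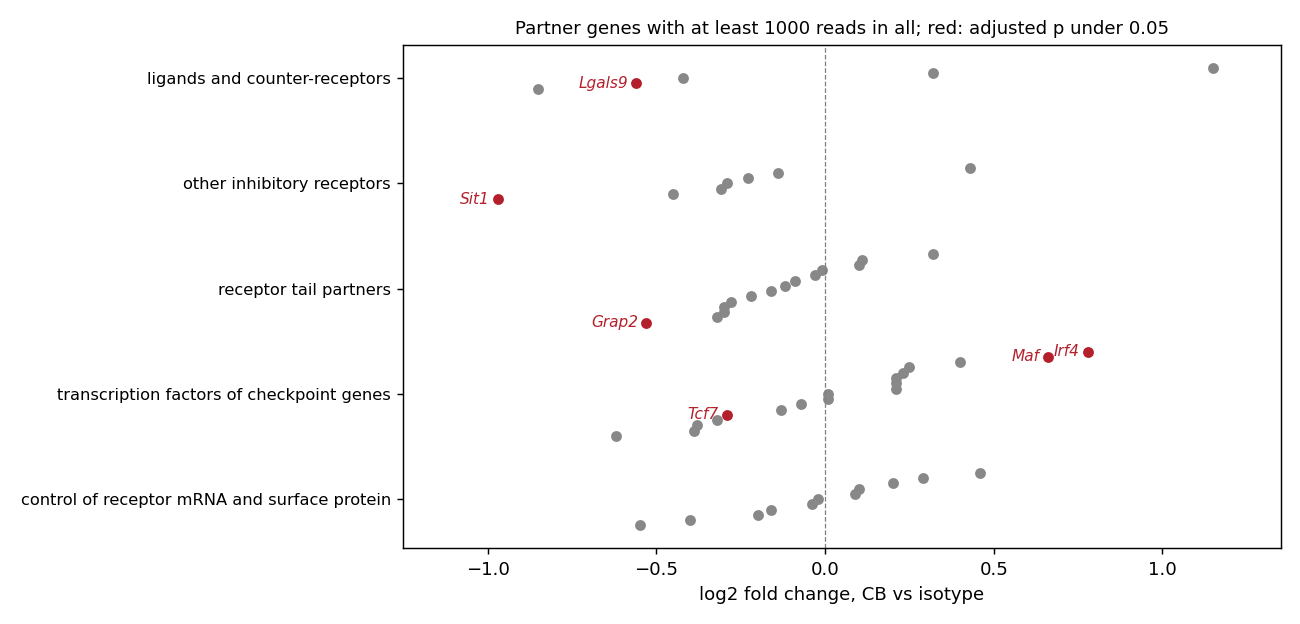
Log2 fold change between CB and isotype (horizontal axis) of the partner genes with at least 1000 reads in all, 1 point per gene and 1 row per list, with the genes of an adjusted p under 0.05 in red and named. *Maf* (0.66) and *Irf4* (0.78) lie to the right, and *Tcf7* (-0.29), *Grap2* (-0.53), *Lgals9* (-0.56) and *Sit1* (-0.97) to the left.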

How the data were processed

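Messenger RNA of sorted splenic CD4+ Blue+Red+ T cells was sequenced from the 3′ end (QuantSeq) in 12 mice. The deposited raw counts are whole numbers of uniquely mapped reads per gene, made by the authors' provider with cutadapt 1.18, STAR 2.6.1a on GRCm38 and featureCounts 1.6.4, per the submitters' processing notes. The annotation release and the strand setting of the counting are not given in the sources used here. The authors also deposited log2-scale rlog values from DESeq2 for 10492 genes, used here for an alternative only.

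In R 4.3.3 the 114 spike-in rows were left out, genes with fewer than 30 reads over the 12 samples were dropped, and counts were TMM-scaled and fitted in edgeR 4.0.16 (quasi-likelihood, 4 group means). P-values were adjusted by Benjamini-Hochberg over all 15138 genes, and a call is an adjusted p under 0.05. DESeq2 1.42.0 and limma 3.58.1 gave alternatives. The edgeR step was tested on simulated data. Positions and coding sequences came from GENCODE M21. All members are named. List genes are named when called in any comparison, together with the 2 of each list with the largest fitted change between CB and isotype. The members and lists were chosen with earlier results of these data known. Samples were grouped by their labels, with 16449370 to 22151025 reads on genes each.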

Additional observations from a re-analysis of the deposited data

Results flagged for a closer look

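*Cd274* stood out because its change with anti-Lag3 differed with the presence of anti-PD-L1. Without anti-PD-L1, the anti-Lag3 mice averaged 8.89 CPM and their controls, the isotype mice, 13.8 CPM. With anti-PD-L1, the CB mice averaged 9.12 CPM and their controls, the anti-PD-L1 mice, 4.76 CPM. The difference between the effects was 1.56 on the log2 scale (SE 0.70), with an unadjusted p of 0.0332 and an adjusted p of 0.804 in edgeR's Benjamini-Hochberg-adjusted quasi-likelihood test, so it failed the correction. Of all 15138 genes, 898 had an unadjusted p under 0.05 in this test and none was called.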

How the results depend on the processing

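The rise of *Icos* between isotype and CB was called with each of the 12 samples left out (0.59 to 0.77, edgeR) and in 8 of 8 other settings of edgeR, DESeq2 and limma (0.57 to 0.69), at an adjusted p between 8.46e-10 and 0.0018. The deposited rlog values, used with limma, hold 8 of the 10 members. Between CB and anti-PD-L1 it was 0.52 and not called by DESeq2 against a log2 fold change of 0.2 (adjusted p = 0.253, 0 members called), and 0.44 to 0.61 with 0 to 1 members called when samples were left out. Between CB and anti-Lag3 it was called, as the 1 member, by DESeq2 against 0 (0.36, adjusted p = 0.012) and without the filter on low counts (0.36, edgeR adjusted p = 0.039), and in 0 of 12 fits with a sample left out (0.28 to 0.45). Leaving out samples turned the direction of *Cd28* (-0.06 to 0.09; isotype 1 or 2 or CB 2), *Btla* (-0.03 to 0.15; isotype 3 or CB 2) and *Cd200* (-0.07 to 0.34; CB 1) between CB and isotype, of *Cd274* between CB and anti-Lag3 (-0.23 to 0.33; anti-Lag3 3, CB 1 or CB 2), and of *Pdcd1* (-0.07 to 0.37; anti-PD-L1 3) and *Lag3* (-0.61 to 0.23; anti-PD-L1 1) between anti-PD-L1 and isotype. None of these was called. The *Icos* to *Cd28* difference ran from 0.61 to 0.75 and that of *Ctla4* to *Cd28* from 0.14 to 0.46. The cause was not tested for any of these.

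The genes called across the whole table numbered 649 between CB and isotype, and 395 to 712 with samples left out (233 to 918 otherwise). They numbered 56 against anti-PD-L1 (4 to 59, and 18 to 178) and 105 against anti-Lag3 (44 to 135, and 41 to 280), and were fewest without CB sample 3 among the fits with a sample left out in all 3. For anti-PD-L1 against isotype the 5 called became 0 to 11 and 5 to 56, and the 0 called in the other 3 tests 0 to 2 and 0 to 14.

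The labels do not say what the sample numbers mark. Over all genes tested, deviations from the group mean correlated at -0.0428 to 0.0503 in the 18 same-numbered pairs. For samples of different number and group the range was -0.0748 to 0.0409, which overlaps. Even so, 9 of 12 samples correlated best with their own number, so a shared effect of the number cannot be set aside. The paper states that cells were sorted in batches and ascribes its second principal component largely to them. Whether the numbers mark those batches is not stated. With the replicate block, *Icos* was also called between CB and anti-Lag3 (0.36, adjusted p = 0.0303, 1 member called, edgeR's quasi-likelihood test), and 843, 137 and 208 genes were called between CB and isotype, anti-PD-L1 and anti-Lag3. The block changed no other call of a member. Among the listed partners it added calls for *Hmgb1* (0.32, edgeR adjusted p = 0.0346) and *Nfatc3* (-0.40, 0.0295) between CB and isotype. It also added *Grap2* (-0.52, 0.0347), *Irf4* (0.66, 0.0156) and *Maf* (0.44, 0.0315) between CB and anti-PD-L1, and *Grap2* (-0.49, 0.0437) between CB and anti-Lag3, all by edgeR.

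*Tigit*, *Havcr2*, *Lag3* and *Cd274* were the members with the fewest reads. *Lag3* had 17 to 229 reads and *Cd274* 52 to 353 per library. Reads also scattered within a group, with 353, 88 and 340 for *Cd274* in isotype mice. For *Lag3* they were 17, 117 and 153 with anti-PD-L1. How much depth or scatter between libraries limits these members was not tested.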

Other observations

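The sample numbers, which the labels give without saying what they mark, went with the level of *Ctla4*. The samples numbered 1, 2 and 3 averaged 202, 274 and 304 CPM over the 4 groups, and sample 1 was the lowest of its group in 4 of 4 groups. A test of the number in the edgeR fit with the number as a term, chosen after the data were seen, gave log2 differences from number 1 of 0.42 and 0.61 and an adjusted p of 0.00383, where 0.264% of all genes were called. *Cd200* averaged 71.6, 54 and 46 CPM over the same numbers (adjusted p = 0.0884, same edgeR test), and the other 8 members had an adjusted p of 1. *Icos*, at 454, 487 and 444 CPM over the numbers, did not pass that test.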
